A study of Mus musculus with 10 samples.

Results

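Transcripts of 10 macrophage genes were followed through the tumor T cell fraction of a mouse melanoma study: Csf1r, Adgre1, C1qa, C1qb, C1qc, Cd68, Arg1, Mrc1, Lyz2 and Apoe. They were chosen by name, not by a cut on measured values, as transcripts that T cells are not known for, among them Csf1r, the target of the drug tested. All 10 symbols were found among the 48825 genes of the deposited table, and each was read in all 10 libraries. The alleles that every mouse carried included BrafCA and Tyr::CreER, in which a drug-inducible recombinase made in melanocytes activates oncogenic Braf, and tumors arise where the skin is induced. The genotype field of the labels reads "wild type" for all libraries. Control mice (3 libraries) ate normal chow. The CSF1Ri group (2 libraries) ate chow with 600 mg/kg of the CSF1R inhibitor PLX6134. The CD40 group (3 libraries) received the agonistic CD40 antibody FGK4.5 at 10 mg/kg, injected into the abdomen every 3 days. The CSF1Ri+CD40 group (2 libraries) received both. Treatment began 30 days after tumor induction, at a tumor volume below 100 mm3. It lasted at most 30 days, with an endpoint volume of 2 cm3 and at most 10 antibody doses. Mice were matched for age without the age being given. Each library pooled at least 3 tumors, so p-values measure the spread between pools. Whether the control mice of these libraries were injected with vehicle is not stated.

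Csf1r encodes the receptor for the cytokines CSF1 and IL-34, a tyrosine kinase on which most tissue macrophages depend for survival. Blocking it lowers macrophage numbers in many tissues, while CD40 agonists act on macrophages, dendritic cells and B cells. C1qa, C1qb and C1qc encode the chains of C1q, the molecule that starts the classical complement pathway, and in tumors macrophages are its main source. A kinase inhibitor acts on the protein, so the Csf1r transcript reports on cells that carry it and on transcription, not on the kinase itself.

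The titles name T cells, the tissue field names tumor-associated macrophages, and the protocol text gives no step that separates the 2. The 16 T cell genes summed to between 100376 and 158729 normalized counts per library, and the 10 macrophage genes to between 674 and 4515. The macrophage genes thus made up 0.00584% to 0.0352% of a library. Of 22 other macrophage genes, 17 averaged under 50 normalized counts over the libraries, and Vsig4, a receptor of resident macrophages, was listed at 0 in all of them. Library totals ran from 11538244 to 14024851 normalized counts. Scaling had already been applied to them, so they give no sequencing depth, and the spacing of the values allowed an estimate of the reads in 1 library only. Y-linked transcripts summed to 2438, 1569 and 3072 in control 1, CD40 2 and CD40 3 and to at most 1 elsewhere. In bulk libraries, fewer macrophages and less RNA per macrophage cannot be told apart.

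The sum of the 10 genes split the libraries in a way that the groups follow only in part. It was 2179, 2758 and 1688 in the control libraries 1, 2 and 3, and 968 and 1198 in the CSF1Ri libraries 1 and 6. It was 4515, 1065 and 674 in the CD40 libraries 1, 2 and 3, and 855 and 1856 in the CSF1Ri+CD40 libraries 1 and 3. Both CSF1Ri libraries lay below every control library, CD40 1 lay above all others, and CD40 2 and CD40 3 lay below every control library. Apoe and Lyz2 together supplied 35.4% to 77.2% of the sum.

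**Figure D1:**
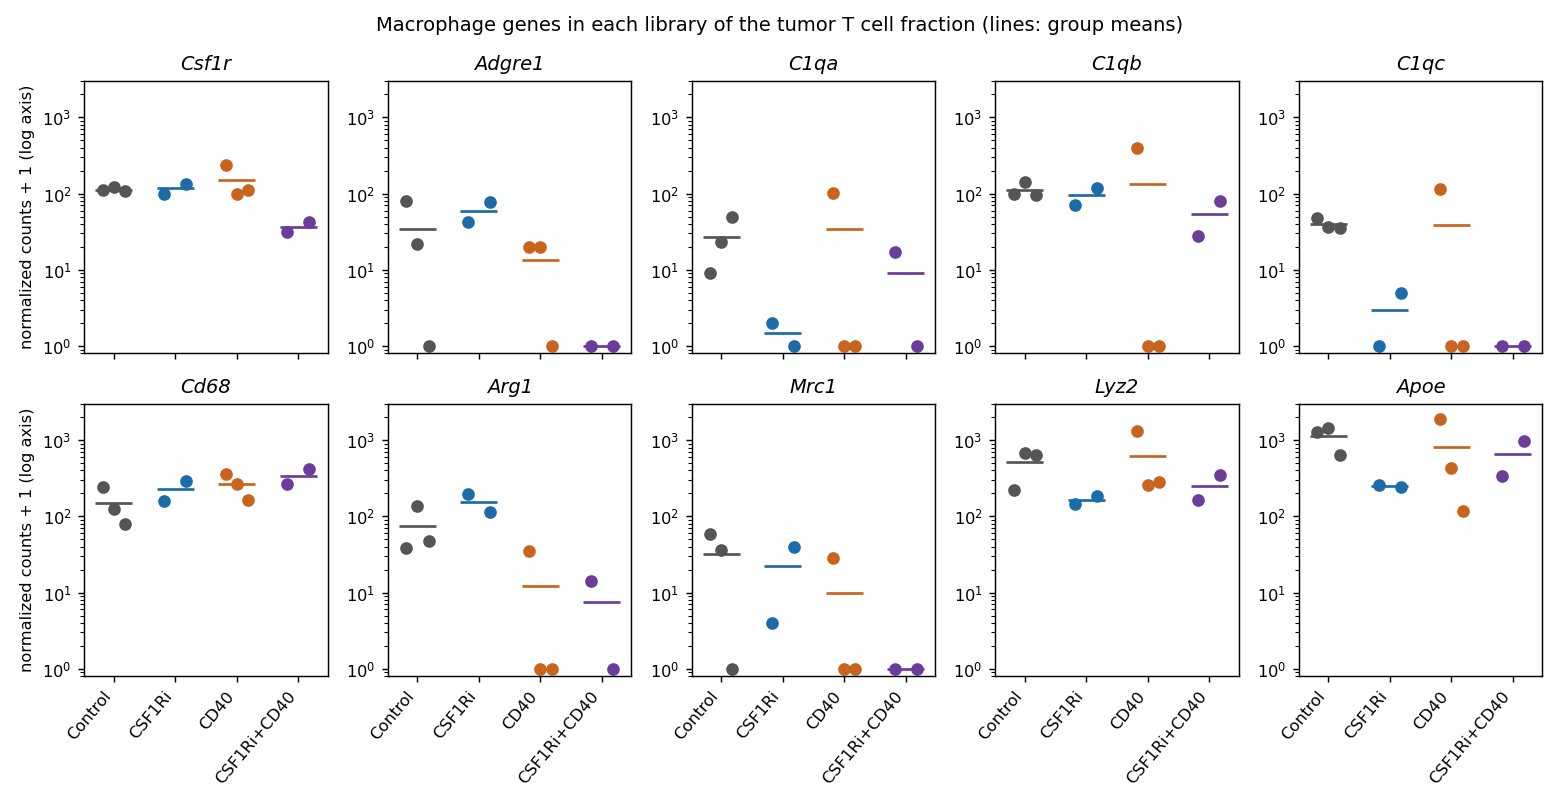
Normalized counts plus 1 (log axis) of each of the 10 genes in each library, grouped by treatment, with lines at group means plus 1; a point at 1 is a gene listed at 0. Csf1r is lowest in both CSF1Ri+CD40 libraries (30 and 41), and C1qa, C1qb and C1qc are at 0 in CD40 2 and CD40 3.

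Csf1r, the drug target, was lower with both treatments than in any other library and lay at control values with the inhibitor alone, though none of these differences passed the test. It stood at 110, 120 and 106 normalized counts in control and at 99 and 133 with the inhibitor, while the CD40 libraries held 235, 99 and 109 and the combination libraries 30 and 41. The CSF1Ri values lie on both sides of the control values, the CD40 values overlap them, and the CSF1Ri+CD40 values do not overlap any other group. The means were 112 ± 7.21 (SD, n = 3), 116 ± 24.0 (n = 2), 148 ± 75.8 (n = 3) and 35.5 ± 7.78 (n = 2). On the log2(normalized count + 1) scale, the scale of all fold changes here, the combination differed from control by -1.64 ± 0.581 (SE), or 3.13-fold. This did not pass the threshold, an adjusted p under 0.05 over the 15716 genes tested (adjusted p = 0.849, limma; unadjusted p = 0.0157).

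Against the single treatments the difference in Csf1r was of like size. It was -1.68 ± 0.636 (SE) for the combination over CSF1Ri (adjusted p = 1, limma) and -1.93 ± 0.581 over CD40 (adjusted p = 0.853, limma; unadjusted p = 0.00646). The interaction, by which the combination departs from the sum of both single effects, was -1.97 ± 0.822 (adjusted p = 0.991, limma). CSF1Ri alone differed from control by 0.04, with a 95% interval from -1.24 to 1.31, so a change of about 2-fold either way is inside the interval (adjusted p = 1, limma). CD40 alone differed by 0.28, with an interval from -0.85 to 1.42 (adjusted p = 0.939, limma). Set against the T cell transcripts of the same library, Csf1r reached 0.953 to 1.10 per 1000 normalized counts of the 16 T cell genes in control. The ratio was 0.722 and 0.870 with CSF1Ri, 0.624 to 1.64 with CD40, and 0.205 and 0.299 with both. The CSF1Ri ratios lay below control although the Csf1r values did not. The T cell sum itself was 100376 to 120242 in control and 106028 to 158729 with CD40. It lay above every control library with CSF1Ri (137208 and 152930) and with both (137188 and 146163).

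Of the 5774 exonic bases of Csf1r, 873 overlap exons of Hmgxb3 on the opposite strand (GENCODE vM21, GRCm38). The libraries carry no strand, so reads from the shared bases cannot be assigned by strand. Hmgxb3 stood at 30 in CSF1Ri+CD40 1, at 188 in CSF1Ri+CD40 3 and at 97 to 192 in the other libraries. Its low value was thus in 1 of the 2 libraries with low Csf1r. What part it has in the Csf1r values was not tested.

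The C1q genes lie side by side within 18675 bases of chromosome 4 on the minus strand: C1qb at 136880129 to 136886187, C1qc at 136889804 to 136893065 and C1qa at 136895917 to 136898803 (GENCODE vM21, GRCm38). No exon of another gene overlaps theirs. The bases just before the start of C1qb and C1qc are shown because the cluster's genes were above 0 together in the control libraries and CD40 1, and at 0 together in CD40 2 and CD40 3. They are from RefSeq (GRCm38.p6, minus strand, 5′ to 3′), and only the bases before the gene start of both annotations are printed. Capitals mark GAGGAA, the core of the motif bound by PU.1, the transcription factor of myeloid cells, or its reverse complement TTCCTC.
C1qb, chr4:136886201-136886450: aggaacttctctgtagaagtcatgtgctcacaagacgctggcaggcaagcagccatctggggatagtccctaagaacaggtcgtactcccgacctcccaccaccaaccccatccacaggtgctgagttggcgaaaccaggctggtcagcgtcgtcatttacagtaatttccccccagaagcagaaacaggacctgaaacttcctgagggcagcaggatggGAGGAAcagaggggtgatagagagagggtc
C1qc, chr4:136893066-136893164: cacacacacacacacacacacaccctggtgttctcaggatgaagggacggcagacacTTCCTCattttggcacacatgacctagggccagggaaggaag
Each holds the letters 1 time on either strand, and 23.3% of the 32851 promoters in the RefSeq table hold them at least 1 time within 250 bases before the start. Of the 6 members with an entry there, 5 hold it in at least 1 entry (Lyz2 does not). This counts genes, whereas the 23.3% counts entries, and Apoe has several entries of which 1 lacks it. A match of letters is a description and does not show that the factor binds.

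Transcripts of the C1q chains were present in every control library, nearly confined to C1qb with the inhibitor alone, and listed at 0 in CD40 2 and CD40 3. C1qb stood at 98, 139 and 96 in control and at 71 and 116 with the inhibitor, while the CD40 libraries held 398, 0 and 0 and the combination libraries 27 and 80. C1qc stood at 47, 36 and 34 in control, at 0 and 4 with CSF1Ri, at 113, 0 and 0 with CD40 and at 0 in both combination libraries. The 2 treatment groups with the inhibitor lay below all control libraries for C1qc, whereas C1qb of CSF1Ri overlapped control. C1qa stood at 8, 22 and 48 in control and at 1 and 0 with the inhibitor, while the CD40 libraries held 100, 0 and 0 and the combination libraries 16 and 0. Only its CSF1Ri values lay wholly below control.

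The 3 chains summed to 153, 197 and 178 in control, 72 and 120 with the inhibitor, 611, 0 and 0 with the antibody, and 43 and 80 with both. All 4 libraries with the inhibitor lay below the lowest control library. C1qb made up 53.9% to 70.6% of this sum in control and 65.1% in CD40 1. It made up 98.6% and 96.7% in the CSF1Ri libraries and 62.8% and 100% in the combination libraries, so the chains were not in 1 ratio across libraries. Outside CD40 1 each chain held 0 to 139 normalized counts, and without read depths the counting error at these levels is unknown.

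**Figure D2:**
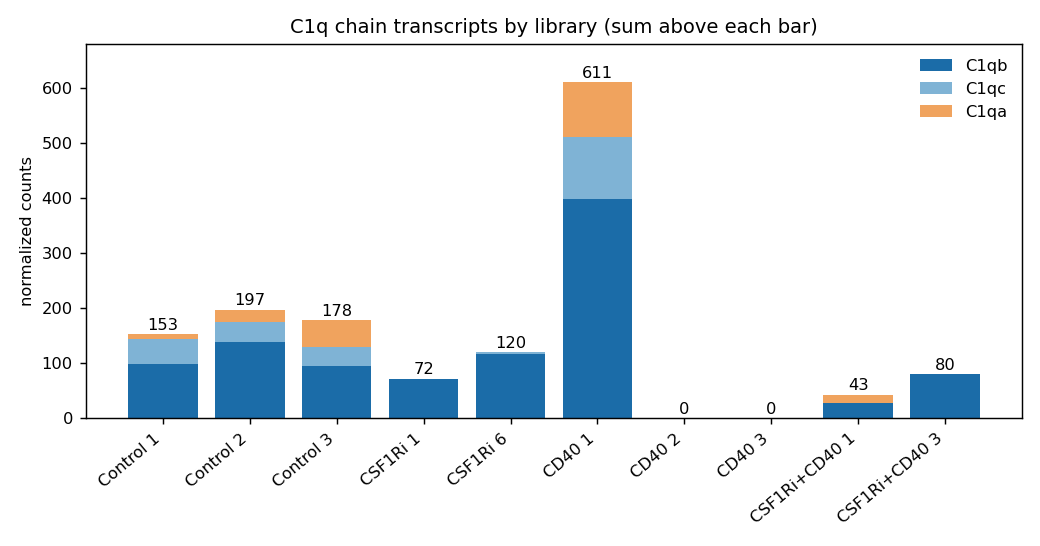
Stacked normalized counts of C1qb, C1qc and C1qa in each library, with the sum above each bar. CD40 1 reaches 611 while CD40 2 and CD40 3 are at 0, and the 2 CSF1Ri libraries hold almost only C1qb.

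None of these differences passed. C1qc differed from control by -4.15 ± 1.94 (SE) with CSF1Ri (adjusted p = 1, limma). With both treatments it was listed at 0 against 39.0 ± 7.00 (SD, n = 3) in control (adjusted p = 0.875, limma; unadjusted p = 0.0185). C1qa differed by -3.94 ± 2.07 with CSF1Ri (adjusted p = 1) and by -2.39 ± 2.07 with both (adjusted p = 0.938, limma). C1qb differed by -0.27 ± 2.06 with CSF1Ri (adjusted p = 1) and by -1.21 ± 2.06 with both (adjusted p = 0.976, limma).

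With CD40 alone the C1q values turned on 1 library. C1qb differed from control by -3.91 ± 1.84 (SE), C1qa by -2.22 ± 1.85 and C1qc by -3.03 ± 1.73 (adjusted p = 0.773, 0.878 and 0.804, limma). Without CD40 1, C1qb differed by -6.79, C1qa by -4.44 and C1qc by -5.31 (adjusted p = 0.0519, 0.562 and 0.393, limma). With only the libraries free of Y-linked transcripts, where CD40 1 is the sole CD40 library, the direction turned, to 1.78, 1.59 and 1.66. C1qb of the combination over CD40 moved with it, from 2.69 ± 2.06 (adjusted p = 0.966, limma) to -3.07 in those libraries.

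Apoe, an apolipoprotein that macrophages and several other cell types secrete, was the most abundant of the 10 genes per length in control, at 525 ± 199 normalized counts per kilobase of exon (SD, n = 3). Lyz2, lysozyme M of macrophages and neutrophils, followed at 390 ± 193 and the lysosomal glycoprotein gene Cd68 at 118 ± 67.1. C1qb stood at 102 ± 22.3, Arg1 at 32.6 ± 23.9, C1qa at 25.0 ± 19.5 and C1qc at 20.2 ± 3.63. Csf1r stood at 19.4 ± 1.25, Adgre1 at 10.2 ± 12.5 and Mrc1 at 4.87 ± 4.58. Neighbors in this order overlapped among the control libraries, except that C1qb lay above Arg1 in all of them. Csf1r had the smallest spread relative to its mean.

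Apoe and Lyz2 were lower in both CSF1Ri libraries than in any control library. Apoe stood at 1279, 1448 and 642 in control and at 257 and 242 with the inhibitor, while the CD40 libraries held 1904, 426 and 115 and the combination libraries 342 and 972. Lyz2 stood at 221, 680 and 637 in control and at 144 and 182 with the inhibitor, while the CD40 libraries held 1325, 259 and 285 and the combination libraries 161 and 344. The CD40 and combination values of each overlapped control. Apoe with CSF1Ri averaged 250 ± 10.6 (SD, n = 2) against 1123 ± 425 (SD, n = 3), a log2 difference of -2.08 ± 0.893 (SE) or 4.24-fold (adjusted p = 1, limma; unadjusted p = 0.0389). Lyz2 averaged 163 ± 26.9 against 513 ± 254, a difference of -1.49 ± 0.715 (adjusted p = 1, limma).

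With both treatments, Apoe differed from control by -0.88 ± 0.893 and Lyz2 by -0.96 ± 0.715 (adjusted p = 0.955 and 0.931, limma). For Apoe the combination lay above CSF1Ri alone without overlap, by 1.21 ± 0.979 (adjusted p = 1, limma), and the interaction was 2.43 ± 1.26 (adjusted p = 0.991, limma). With CD40 alone Apoe differed by -1.22 ± 0.799 and Lyz2 by 0.01 ± 0.640 (adjusted p = 0.832 and 1, limma). Without CD40 1 the Lyz2 difference was -0.75, and that of Apoe was -2.25. Lyz1, the neighboring copy of Lyz2 with which reads could be shared, held at most 47 normalized counts in any library.

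Marker sums of other cell types also differed between the libraries. The 10 fibroblast genes summed to 2200 to 4363 in control, 941 and 1256 with CSF1Ri, 40 to 8056 with CD40 and 1210 and 6640 with both. The 10 keratinocyte genes summed to 1184 to 2270, 396 and 459, 322 to 1690, and 489 and 2516. The 6 erythroid genes, of which Slc4a1 was at 0 throughout, summed to 2940 to 15906, 1318 and 2729, 876 to 1195, and 13 and 501. Both CSF1Ri libraries lay below all control libraries for these 3 lists, as for the sum of the macrophage genes, but the erythroid sum was 876 in CD40 1, the library highest in Apoe and Lyz2. Other lists stood elsewhere with CSF1Ri. The 12 neutrophil genes summed to 5464 and 9934 against 2384 to 4258 in control, and the 14 monocyte genes to 22234 and 24334 against 15394 to 20336. Most of the neutrophil sum was 1 gene, Il1r2, at 5283 and 9763 with CSF1Ri against 2127 to 4045 in control. S100a8, the next gene of that list by mean, stood at 50 and 52 with CSF1Ri and overlapped control, at 39 to 103. The 11 melanocyte genes, at 533 and 738, overlapped the control range of 349 to 788. The mast cell genes reached 30174 in CD40 1, the library highest in the macrophage sum, against 890 to 14104 elsewhere. The part of these cells in the macrophage gene values was not tested.

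**Figure D3:**
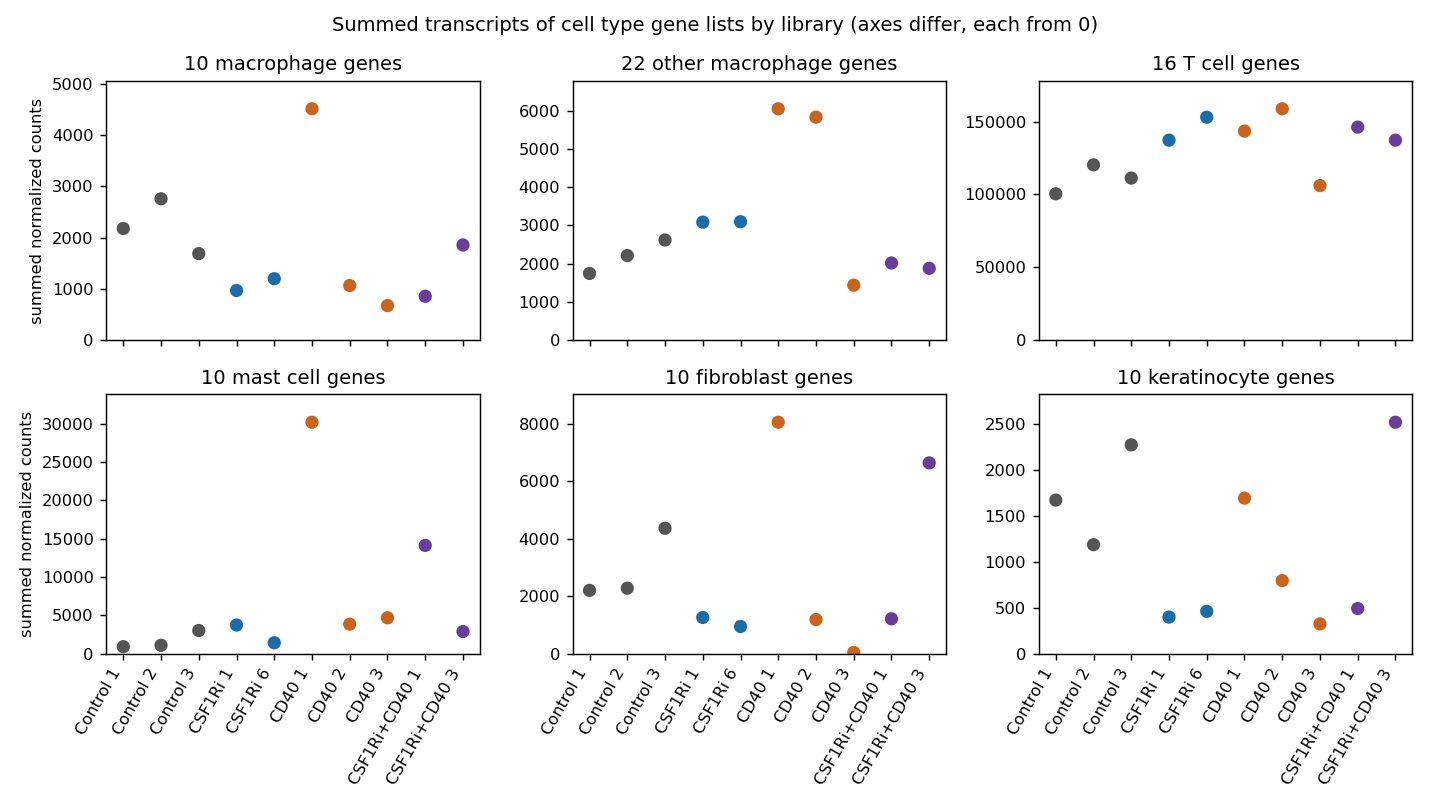
Summed normalized counts of the 10 macrophage genes and of 5 marker lists in each library (linear axes from 0, which differ between panels; colors mark the groups). CD40 1 is highest for the macrophage, mast cell and fibroblast sums, and the T cell sum varies least, from 100376 to 158729.

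Cd68 was the one gene of the 10 that was higher with both treatments than in control. It stood at 242, 123 and 79 in control and at 159 and 292 with the inhibitor, while the CD40 libraries held 360, 262 and 165 and the combination libraries 266 and 419. The 2 combination libraries lay above all control libraries and overlapped both single treatments. The difference from control was 1.32 ± 0.559 (SE), or 2.50-fold (adjusted p = 0.914, limma; unadjusted p = 0.0368). The combination differed by 0.63 ± 0.613 from CSF1Ri and by 0.42 ± 0.559 from CD40 (adjusted p = 1 and 0.966, limma). CSF1Ri alone differed from control by 0.69 ± 0.559 and CD40 alone by 0.90 ± 0.500 (adjusted p = 1 and 0.794, limma). Cd68 and Csf1r thus had opposite signs with both treatments.

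Arg1 encodes arginase 1, which breaks down arginine and is a textbook product of suppressive tumor macrophages. It was at 0 to 34 in every library that had received the CD40 antibody. It stood at 38, 134 and 46 in control and at 193 and 113 with the inhibitor, while the CD40 libraries held 34, 0 and 0 and the combination libraries 13 and 0. The 5 antibody libraries lay below the 5 others, at 38 to 193, but CD40 1 at 34 was close to control 1 at 38. This pooling of groups was not among the comparisons fitted, and the share of all genes that separate this way was not counted. The CD40 libraries differed from control by -4.26 ± 1.50 (SE; adjusted p = 0.722, limma; unadjusted p = 0.0153). Without CD40 1 this was -5.97 and, with that library as the only one of its group, -1.19. The combination differed by -4.07 ± 1.67 from control and by -5.31 ± 1.83 from CSF1Ri (adjusted p = 0.914 and 1, limma; unadjusted p = 0.0326 and 0.014). With CSF1Ri alone the difference was 1.24 ± 1.67 (adjusted p = 1, limma).

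Adgre1 and Mrc1 were listed at 0 in both combination libraries and were low throughout. Adgre1 encodes F4/80, the marker by which mouse macrophages are usually recognized. It stood at 78, 21 and 0 in control and at 41 and 77 with the inhibitor, while the CD40 libraries held 19, 19 and 0 and the combination libraries 0 and 0. Since control 3 was also at 0, the combination overlapped control (adjusted p = 0.925, limma) but not CSF1Ri (adjusted p = 1, limma; unadjusted p = 0.0162). CSF1Ri differed from control by 2.25 ± 1.89 (SE) and CD40 by -0.71 ± 1.69 (adjusted p = 1 and 0.963, limma), and the interaction had an adjusted p = 0.991. Mrc1 encodes the mannose receptor CD206 of alternatively activated macrophages. It stood at 58, 35 and 0 in control and at 3 and 39 with the inhibitor, while the CD40 libraries held 27, 0 and 0 and the combination libraries 0 and 0. It differed from control by -0.02 ± 2.08 with CSF1Ri and by -2.08 ± 1.86 with CD40 (adjusted p = 1 and 0.889, limma), and the combination had an adjusted p = 0.925.

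**Figure D4:**
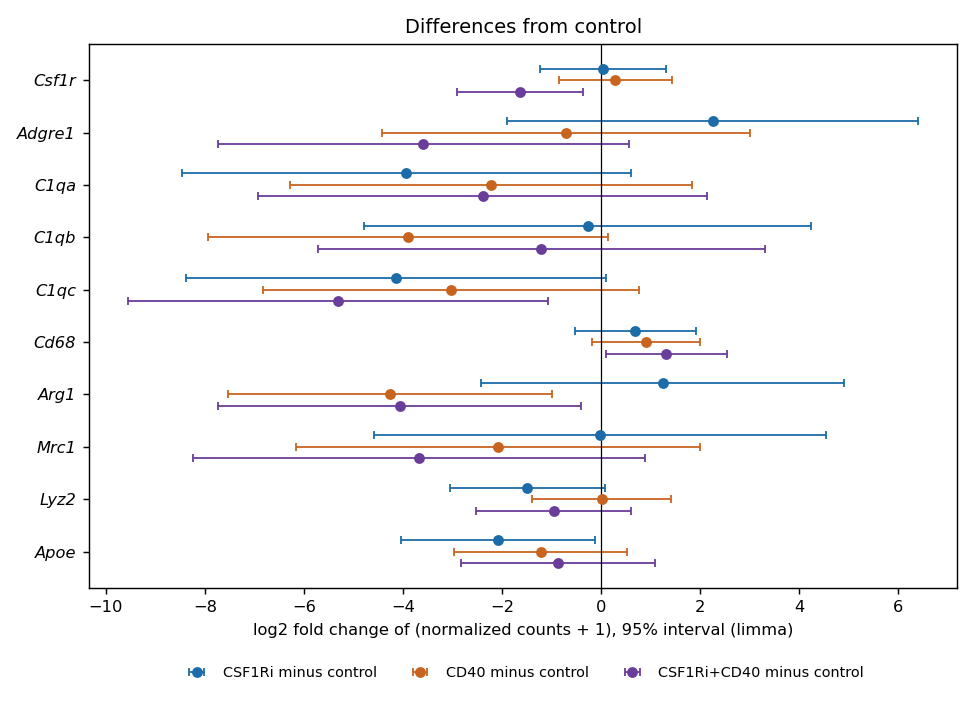
Log2 fold change of normalized counts plus 1 from control for each of the 10 genes, with 95% intervals from limma, by treatment. With both treatments 9 of the 10 points are below 0 and Cd68 is above it. The intervals of Adgre1, Mrc1 and the C1q genes span several units. For genes at or near 0 in a treatment group, such as those at 0 in both combination libraries, the point depends on the pseudocount.

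Counted over the 10 genes, none passed in any comparison, and neither did nearly any other gene. All 10 entered the test, each having reached 10 normalized counts in at least 4 libraries. For CSF1Ri over control, 0 of 10 passed against 0.00636% of all genes. An unadjusted p under 0.05 was found for 1, and for 641 of the 15716 genes tested (limma). Of the 10, 4 lay below control without overlap (C1qa, C1qc, Lyz2 and Apoe) against 10.3% of all genes, and 0 above it against 11.6%. The median log2 difference was -0.14 against 0.02 for all genes. For CD40 over control, 0 passed against 0.00636%, and 1 had an unadjusted p under 0.05, as did 1005 of all 15716 (limma). Arg1 alone lay below without overlap, against 4.91% of all genes, and 0 lay above, against 4.19%. The median was -1.65 against -0.01 for all genes.

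For the combination over control, 0 of 10 passed, as did 0% of all genes. Of the 10, 4 had an unadjusted p under 0.05, against 849 of the 15716 genes tested (limma). Csf1r, C1qb, C1qc and Arg1 lay below control without overlap, against 9.60% of all genes, and Cd68 above, against 10.6%. The median was -2.02, or -1.62 with groups at 0 set to a floor of 3 counts per library, against 0.00 for all genes. Over CSF1Ri, 0 passed (0% of all genes) and 3 had an unadjusted p under 0.05, as did 563 of 15716 (limma). Below without overlap lay 4 against 16.8% (Csf1r, Adgre1, Arg1 and Mrc1), and Apoe lay above against 16.5%. Over CD40, 0 passed (0% of all genes) and 1 had an unadjusted p under 0.05, as did 780 of 15716 (limma). Csf1r alone lay below without overlap, against 6.84%, and 0 lay above, against 8.19%. In the interaction 0 passed (0% of all genes). Csf1r alone of the 10 had an unadjusted p under 0.05 (limma), against 655 of 15716 genes. Comparisons with control share the control libraries and are not independent.

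Other genes of the CSF1R pathway lay on both sides of control. The list held 22 genes for ligands, regulators, signal transducers and sister receptors, all tested, of which 0 passed in any comparison. At an unadjusted p under 0.05 for both treatments over control stood 2, against 849 of the 15716 genes tested (limma). With both treatments 13 were lower and 9 higher than control (median -0.06), and 0 lay below control without overlap, against 9.60% of all genes, while 6 lay above it, against 10.6%. Csf1, the gene of the main ligand, stood at 160, 10 and 37 in control, 48 and 136 with the inhibitor, 87, 80 and 44 with the antibody and 249 and 252 with both. The combination lay above every other library, by 2.63 ± 0.984 (SE) over control (adjusted p = 0.887, limma; unadjusted p = 0.021). Il34, the other ligand, was at 78 in CSF1Ri+CD40 3 and at 0 to 44 elsewhere. Irf8, a transcription factor of monocytes and dendritic cells that T cells also make, stood at 592 and 927 with both against 147 to 579 in control (1.29 ± 0.503, adjusted p = 0.895, limma).

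Lists that share a role with single members also had 0 genes past the threshold in all 6 comparisons. At an unadjusted p under 0.05 with both treatments stood 0 genes of the macrophage list, 1 each of the complement, lipid and lysosome lists and 2 of the alternative activation list (limma). Over all 15716 genes tested, 849 did so in that comparison. Of 17 tested genes of macrophage identity, 10 were lower and 6 higher with both treatments (median -0.29). Their sum, over the 22 listed, was 1741 to 2615 in control and 3083 and 3094 with CSF1Ri, on the other side of control from the sum of the 10 genes. The most abundant of them, Fcer1g, Spp1 and Tyrobp, are made by mast cells, natural killer cells or activated T cells as well. Of 13 tested complement genes, 10 were lower with CSF1Ri (median -1.11) and 6 with both (median 0.14). C3ar1, a receptor for a complement fragment on myeloid cells, stood at 93, 45 and 42 in control and at 0 and 4 with both (adjusted p = 0.883, limma), and C4b, a complement protein, at 0, 3 and 78 and at 105 and 143 (adjusted p = 0.925).

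Of 16 tested genes of lipid handling, the process in which Apoe takes part, 13 were lower with CSF1Ri (median -0.66) and 11 with both (median -0.31). Of 16 tested genes of alternative activation and arginine use, 8 were lower and 8 higher with both. Mgl2, a lectin of alternatively activated macrophages and dendritic cells, stood at 148, 42 and 62 in control and at 21 and 0 with both (adjusted p = 0.843, limma). Arg2, the mitochondrial arginase, stood at 32 to 89 in all libraries. Of 18 lysosomal genes, which most cells express, 14 were higher with both (median 0.25). Their sum was 31708 to 37222 in control and 39422 and 44025 with both, the same side as Cd68. With CSF1Ri alone it also lay above control, at 39328 and 41196, and with CD40 it was 25989 to 46506.

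Genes were ranked by the likeness of their levels to those of a member, as the root mean square difference of centered log2 values over the 10 libraries, among 10480 genes with a mean of at least 50. Nearest to Csf1r were 9430015G10Rik (0.354), Rbbp9 (0.423), Gm10434 (0.445), Oas1c (0.445) and Alg2 (0.486), none of which is on the macrophage list. The member nearest to Csf1r was Lyz2, at 0.886, and the nearest pair among the other members was Lyz2 and Apoe, at 0.942. C1qa and C1qc differed by 1.72, C1qb and C1qc by 2.31, and C1qa and C1qb by 2.43. C1qa lay nearer to Apoe, at 1.93, than to C1qb. Nearest to Apoe were S100a16 (0.397), Prrg2 (0.587), Borcs6 (0.593), Rpph1 (0.682) and Perp (0.719), of which Perp is on the keratinocyte list. Nearest to C1qa were Krtdap (1.42), an epidermal gene, Ccl7, Fah (1.69) and Pidd1 (1.75). Nearest to Arg1 were Plet1 (1.69), Scarb1 (1.78), Pomk (1.92), Ncald (1.97) and Jchain (2.01).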

How the data were processed

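RNA of 10 pooled tumor cell preparations was sequenced as 75-base paired reads from libraries without strand information, per the labels' protocols. Per the submitters' processing notes, the authors used STAR, HTSeq and DESeq2 with GRCm38 (mm10). Versions and the annotation release are not given in the sources used here. The deposited values are whole numbers labelled as normalized, entered as scores; that the authors divided counts by DESeq2 size factors and rounded them is inferred from these notes and the values. They are called normalized counts here, were not scaled again, and entered no count model.

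The 15716 of 48825 genes that reached 10 in 2 or more libraries were taken to log2 after adding 1, and fitted in 1 linear model of the 4 groups in limma 3.58.1 (R 4.3.3) with a variance trend. Tests were two-sided with Benjamini-Hochberg adjustment over all genes of a comparison and a threshold of 0.05. The fit was tested on simulated data. The members, lists and comparisons were chosen with earlier results of these data known. Named genes were the 10 members, for 4 of them the 5 nearest genes in level, and from each list any gene past the threshold, the 3 with the highest mean and the 2 with the smallest p for the combination over control, of which some are printed and a few are not reported here, as is 1 allele of the mice. Il34, Arg2, Vsig4, Slc4a1, Lyz1, Hmgxb3 and Il1b were added after their values were seen. Gene positions and exonic lengths are from GENCODE vM21. Equal values made up at most 0.632% between any libraries, so none was a duplicate. Title numbers shared between groups gave correlations of departures from the group means of -0.27 to 0.18 over 7 pairs, so they were not used to pair libraries. Alternatives were another pseudocount, filters, scalings, fits of 2 groups, no variance trend, a replicate block, libraries without Y-linked transcripts and leaving out each library. Python 3.11.15 with pandas 2.3.3 was used for the other steps.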

Additional observations from a re-analysis of the deposited data

How the results depend on the processing

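No macrophage gene passed the threshold under any alternative run. Single differences were recomputed for all 10 genes against control and for chosen genes elsewhere. These were Csf1r, Adgre1, Arg1, Cd68 and Apoe for the combination over CSF1Ri, and Csf1r, C1qb and Cd68 over CD40. For the interaction they were Csf1r, Adgre1 and Apoe. Among the recomputed differences the smallest adjusted p was 0.0519 (C1qb, CD40 over control without CD40 1, limma). Of 767 recomputed differences of single genes, 744 kept their direction. The cause of the others was not tested. Without a variance trend the number of genes called over all genes was 6 (CSF1Ri over control), 2 (CD40), 13 (combination), 15 (combination over CSF1Ri), 9 (combination over CD40) and 6 (interaction). For CSF1Ri over control it was 0 with a pseudocount of 10, without a filter, with a filter of 50, with only the groups compared, and in libraries without Y-linked transcripts. For CD40 over control it was 0 without a filter, with only the groups compared and in libraries without Y-linked transcripts. For the combination over control it was 1 with a pseudocount of 10 and with a filter of 50.

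Leaving out 1 library at a time gave 0 genes for CSF1Ri, 0 to 3 for CD40, 0 to 36 for the combination over control, 0 to 6 over CSF1Ri, 0 to 20 over CD40 and 0 to 2 for the interaction. The highest counts came without CSF1Ri+CD40 1 or, for CD40 and the interaction, without CD40 1. With CSF1Ri, Csf1r ranged from -0.17 to 0.25, C1qb from -0.62 to 0.084 and Mrc1 from -1.87 to 1.64. With CD40, Csf1r ranged from -0.11 to 0.51, Adgre1 from -2.50 to 0.73 and Lyz2 from -0.75 to 0.43. Scaling to equal totals gave Csf1r -0.0085 with CSF1Ri and Lyz2 -0.050 with CD40.

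With only the libraries without Y-linked transcripts, CD40 1 is the sole CD40 library. The median of the 10 genes was then 1.63 for CD40, -3.15 for the combination over CD40 and -2.73 for the interaction. Adgre1 stood at 2.09, C1qa at 1.59, C1qb at 1.78, C1qc at 1.66, Mrc1 at 2.22 and Apoe at 0.98 for CD40, Mrc1 at 1.08 for CSF1Ri, and C1qb at -3.07 and Cd68 at -0.11 for the combination over CD40. With the title number as a replicate block, 0 genes were called for CD40. In that fit neither CSF1Ri library shared a block with another library, so the CSF1Ri difference rests on CSF1Ri 6 alone. Arg1 was then -0.74 for CSF1Ri, which is a value of that library and not a difference of the group. Groups of 2 or 3 pools and unknown depth limit what could be detected, and several of the genes are near 0.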

Other observations

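Most inflammatory genes tested lay higher in the combination libraries than in control, although the list names macrophage products that T cells also make. Of 12 tested, 10 were higher and 2 lower with both treatments, and 0 passed. An unadjusted p under 0.05 was found for 4, against 849 of the 15716 genes tested (limma). Without overlap, 7 lay above control (10.6% of all genes) and 1 below (9.60%). The 1 below was Il1b, at 60, 95 and 21 in control and at 11 and 0 with both. Ccl3, a chemokine gene, stood at 190, 272 and 133 in control and at 1074 and 1830 with both treatments (2.88 ± 0.641, adjusted p = 0.521, limma). Ccl4 stood at 1200, 1869 and 1103 in control and at 6380 and 8292 with both (adjusted p = 0.914, limma). Ccl5 stood at 22435, 27011 and 13764 and at 42854 and 67337 (adjusted p = 0.914, limma). For all 3 genes the combination libraries lay above every other library.

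Of the B and plasma cell list, 8 genes were tested, of which 8 were lower with both treatments than in control. Of these, 4 lay lower without overlap (9.60% of all genes) and 0 passed. An unadjusted p under 0.05 was found for 3, against 849 of the 15716 genes tested (limma). Jchain and Mzb1, the 2 with the smallest p, were listed at 0 in both combination libraries. Jchain, which joins antibody chains, stood at 24, 611 and 120 in control, at 683 and 63 with the inhibitor, and at 582, 0 and 0 with the antibody (adjusted p = 0.849 for the combination over control, limma). Mzb1, a chaperone of antibody-secreting cells, stood at 23, 6 and 29 in control (adjusted p = 0.81, limma). The abundant Ighm stood at 4726 to 6632 in control and at 5446 and 4419 with both, and Cd79b, part of the B cell receptor, at 351, 324 and 563 in control and at 295 and 174 with both.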
